A study of Rattus norvegicus with 12 samples.

Results

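The tripartite motif (TRIM) genes of cultured rat heart muscle cells are described here across an siRNA and a hypertrophic stimulus. The members were taken as every gene whose symbol is Trim followed by a digit, which gave 53 of the 18469 genes in the deposited table. RNA of neonatal rat ventricular myocytes (NRVMs), the ventricular muscle cells of newborn Sprague-Dawley rats grown in culture, was sequenced in 12 libraries, with 3 biological replicates in each of 4 groups. The siNeg cells received a negative control siRNA and no drug, and the siNeg.PE cells received the same siRNA and then phenylephrine (PE), an agonist of the α1-adrenergic receptor that makes cardiomyocytes grow, for 36 h starting 12 h after transfection. The siSlc25a26 cells received an siRNA against Slc25a26, the mitochondrial carrier of S-adenosylmethionine, and no drug, and the siSlc25a26.PE cells received that siRNA and the same course of PE. All 4 groups were therefore transfected, and the labels name a single targeting siRNA. The study's methods describe an siRNA against Nap1l5 in place of Slc25a26, with other times, and the sample labels were followed.

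TRIM proteins typically carry a RING domain, 1 or more B-boxes and a coiled coil, though not every member has all of these. Most of them act as E3 ubiquitin ligases, which attach ubiquitin to chosen proteins. Their C-terminal parts differ and set the target. Many members with a PRY-SPRY C-terminus take part in innate antiviral defence and are induced by interferon, whereas the muscle RING-finger proteins MuRF1 (Trim63), MuRF2 (Trim55) and MuRF3 (Trim54) sit on the sarcomere and on microtubules of striated muscle, where MuRF1 marks contractile proteins for the proteasome. The members were placed in 5 groups by known role: 13 antiviral or interferon-linked genes, 5 muscle genes, 4 genes of the chromatin-bound TIF1 group, 8 NHL, COS-box and neuronal genes, and 23 others. Trim45, which has a filamin-type domain, was placed with the NHL, COS-box and neuronal genes. These 5 groups, and the lists of partner genes used below, were drawn up with earlier results of these data known.

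Promoter sequences were shown for the 3 members whose start region holds the core of the interferon-stimulated response element. The letters searched were GAAA, any 2 bases and GAAA again, on either strand, with overlapping matches allowed, over 300 bases from 250 before to 50 after the start in RefSeq (GRCr8). Of 33469 rat promoters, 3.92% hold these letters, and of the 43 members with a promoter sequence there, Trim21, Trim34 and Trim26 do (6.98%). Each is written 5′ to 3′ on the strand of its gene, with the matches in capitals. Trim21 lies on the minus strand (chr1:166399322-166399621), Trim34 on the plus strand (chr1:168118793-168119092) and Trim26 on the minus strand (chr20:1736262-1736561).
Trim21: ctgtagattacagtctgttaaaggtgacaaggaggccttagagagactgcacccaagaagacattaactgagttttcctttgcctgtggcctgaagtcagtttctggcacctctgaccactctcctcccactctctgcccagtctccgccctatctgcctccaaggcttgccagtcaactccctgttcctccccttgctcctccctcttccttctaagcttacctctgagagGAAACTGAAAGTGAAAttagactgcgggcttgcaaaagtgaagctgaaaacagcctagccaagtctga
Trim34: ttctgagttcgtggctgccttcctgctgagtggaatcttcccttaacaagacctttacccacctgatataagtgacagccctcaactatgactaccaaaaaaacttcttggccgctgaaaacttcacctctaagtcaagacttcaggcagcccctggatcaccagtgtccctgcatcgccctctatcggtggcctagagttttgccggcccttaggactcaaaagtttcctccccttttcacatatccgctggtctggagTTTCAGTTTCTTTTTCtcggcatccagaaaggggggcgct
Trim26: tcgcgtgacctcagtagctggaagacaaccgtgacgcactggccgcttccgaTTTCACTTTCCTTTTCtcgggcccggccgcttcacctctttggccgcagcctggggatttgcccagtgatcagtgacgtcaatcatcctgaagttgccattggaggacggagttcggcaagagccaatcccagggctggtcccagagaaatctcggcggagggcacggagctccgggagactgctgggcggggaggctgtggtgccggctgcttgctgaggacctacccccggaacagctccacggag
In Trim21 and in Trim34 the pair of overlapping matches lies close to the start, from -18 to -3 in Trim21 and from 11 to 26 in Trim34, counted in bases from the start. In Trim26 the pair lies farther before it, from -198 to -183. The E-box letters CAGCTG are in 15.1% of all promoters and in those of 8 members (18.6%), among them the muscle genes Trim54 and Trim63 and the antiviral genes Trim5 and Trim25. A match describes the letters in this window and was not tested as a binding site.

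Library totals lay between 24770972 and 28709049 estimated counts. Levels are given as CPM, the counts as a fixed share of each library after TMM scaling, which corrects for a few genes taking much of a library, and 3 counts, the smallest number taken as detected, equal 0.0983 to 0.121 CPM. Levels of different genes are compared only as FPKM, fragments scaled to gene length and to library size. A gene was called where edgeR's quasi-likelihood test gave a Benjamini-Hochberg adjusted p under 0.05 over all tested genes and the fold change was above 1.5. Slc25a26 itself measured 31.8 ± 2.19 CPM (SD, n = 3) in siNeg and 15 ± 0.588 CPM in siSlc25a26, a log2 difference of -1.08 (SE 0.0798, adjusted p = 1.08e-05). Under PE it measured 102 ± 14 CPM in siNeg.PE and 101 ± 3.08 CPM in siSlc25a26.PE (log2 difference -0.01, SE 0.101, adjusted p = 0.969), so the targeted gene did not separate the PE groups and those libraries are named here by their label. Nap1l5 was lower in both groups with the targeting siRNA, by a log2 difference of -0.84 (adjusted p = 0.0397) without PE and -1.05 (adjusted p = 6.36e-04) under PE. Summed markers of cardiomyocytes (10 of 10 detected) lay at 23900 to 57300 CPM in every library and those of lymphocytes at 0 to 0.0386 CPM. Fibroblast markers lay at 24100 to 26200 CPM in siNeg, 13700 to 15300 in siSlc25a26, 13100 to 13600 in siNeg.PE and 9680 to 10400 in siSlc25a26.PE. Of these 10 markers, 7 were called lower and 0 higher with the targeting siRNA without PE, and 4 lower and 1 higher under PE. With PE, 6 were called lower and 0 higher in siNeg, and 1 lower and 0 higher in siSlc25a26. In siNeg, 4 of the 10 had log2 differences above 0 with PE. The part of these markers in the TRIM values was not tested. In bulk RNA, fewer cells of a type and less RNA per cell cannot be told apart.

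Of the 53 members, 42 had enough counts for a test in at least 1 comparison and 37 in all 5. The other 11 reached at most 11 counts in any library, namely Trim9, Trim10, Trim15, Trim17, Trim29, Trim30c, Trim43a, Trim52, Trim58, Trim67 and Trim80. In siNeg cells the highest TRIM levels per gene length belonged to the muscle gene Trim54 (185 ± 9.33 FPKM), followed by Trim72 (159 ± 7.76 FPKM), the corepressor gene Trim28 (121 FPKM) and Trim55 (115 ± 5.83 FPKM). The 5 muscle genes together made up 54.4% of the summed TRIM FPKM in siNeg, 55.7% in siNeg.PE, 51.3% in siSlc25a26 and 51.3% in siSlc25a26.PE (means of 3 libraries). The 13 antiviral genes made up 4.49%, 4.72%, 14.5% and 11.9% of it in the same order. Their summed level was 45.2 ± 2.04 FPKM in siNeg, 43.1 ± 3.85 in siNeg.PE, 176 ± 5.95 in siSlc25a26 and 121 ± 2.62 in siSlc25a26.PE. By FPKM, Trim25 stood 13th among the members in siNeg and 8th in siSlc25a26, Trim21 moved from rank 33 to rank 12, and Trim30 from rank 45 to rank 19.

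The first comparison asks how the TRIM genes differ between the Slc25a26 siRNA and the control siRNA without PE. Of the 11 antiviral genes tested, 9 were called higher and 0 lower. The group was drawn up with earlier results known, so its counts and medians are a description. Trim30, Trim14, Trim21, Trim69, Trim34, Trim6, Trim25, Trim5 and Trim26 were called higher, by log2 differences from 7.57 down to 0.95, while the muscle genes stayed within 1.5-fold. Of 42 members tested, 10 were called higher (23.8%) and 2 lower (4.76%), where 8.92% of all 13829 tested genes were called higher and 7.2% lower. Trim6, Trim14, Trim30 and Trim69 passed the filter on low counts only through the libraries with the targeting siRNA, so the count holds genes that had to differ. Trim50, called lower, was tested only in comparisons that include siNeg, where it was highest. Limma on log2(FPKM + 1) called 8 higher and 0 lower. Among the 37 members tested in all 5 comparisons, 6 were called higher and 1 lower. Among the 7 antiviral genes of that kind, 5 were called higher and 0 lower, with a median log2 difference of 2.03 against 0.015 over all tested genes. The 31 tested members outside the antiviral group had a median of -0.01, with 1 called higher and 2 lower.

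The same comparison under PE uses 6 other libraries, so no library is shared between them. Of 41 members tested, 10 were called higher (24.4%) and 1 lower (2.44%), where 7.71% of 13671 genes were called higher and 8.1% lower. Among the 7 antiviral genes tested in all comparisons, 5 were again called higher and 0 lower (median 1.25 against -0.003 over all genes). The 9 antiviral genes named for the cells without PE were all called higher under PE as well, which is 9 of the 10 called higher in each comparison. They include Trim6, Trim14, Trim30 and Trim69, which had to differ once they passed the filter, and the other 5 are Trim5, Trim21, Trim25, Trim26 and Trim34. Of the 13508 genes tested in both comparisons, 581 (4.3%) were called higher in both. Promoter sequences were available for 7 of the 9, and 3 of these (Trim21, Trim26 and Trim34) hold the response element letters printed above. In all 9 genes each library with the targeting siRNA lay above each of its controls, a separation in either direction that 56.5% of all tested genes showed without PE and 51.8% under PE.

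**Figure D1:**
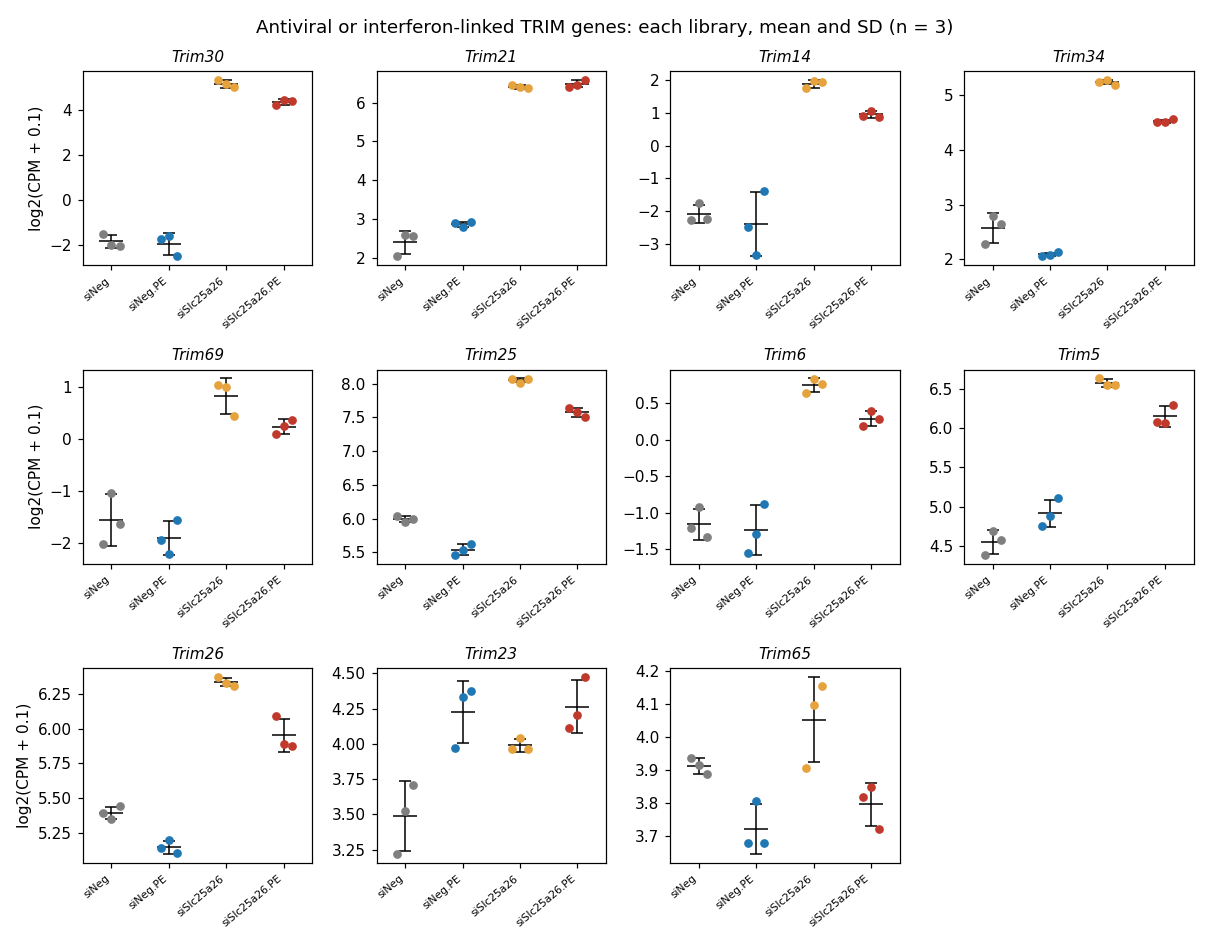
Levels of the 11 antiviral or interferon-linked TRIM genes that were tested, as log2(CPM + 0.1) on the vertical axes, which differ between panels and do not start at 0, for the 4 groups on the horizontal axes. Points are libraries and bars the mean and SD of 3 libraries. In 9 panels the points of siSlc25a26 and siSlc25a26.PE all sit above those of siNeg and siNeg.PE, and in the panels of Trim23 and Trim65 they do not.

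Trim30 (NCBI Gene 499223), of the rodent Trim30 group related to Trim5, showed the widest separation. Its level was 0.257, 0.156 and 0.148 CPM in the siNeg libraries and 41.2, 35.8 and 32.4 CPM in siSlc25a26. Under PE it was 0.201, 0.232 and 0.0805 CPM in siNeg.PE and 18.7, 22.2 and 21.5 CPM in siSlc25a26.PE. The control libraries thus lay near the floor of 3 counts and all 6 libraries with the targeting siRNA far above it. The summed counts were 15 against 3244 without PE, a ratio of 194 after scaling (exact 95% interval 118 to 348), and 13 against 1612 under PE, a ratio of 121 (70.5 to 228). These intervals cover counting error only.

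Trim30 belongs to a row of related genes, in the order Trim6, Trim34, Trim5, Trim30c and Trim30 with 2 pseudogenes among them in the GRCr8 annotation, where Trim30 is listed as Trim30d. Reads from close copies could be split between them by the authors' counting, so the level of each is uncertain, although all 5 carried whole counts in every library. Trim30c (102554102) was listed at 2, 6 and 5 counts in siSlc25a26 and at 0 in the 9 other libraries and was not tested. Trim34 (101241893), a relative of Trim5, measured 4.74, 6.86 and 6.15 CPM in siNeg and 37.7, 38.7 and 36.4 CPM in siSlc25a26, a 6.36-fold rise (log2 2.67, SE 0.123, adjusted p = 4.01e-07). Under PE, Trim34 measured 4.09, 4.13 and 4.27 CPM against 22.6, 22.6 and 23.4 CPM, a 5.53-fold rise (log2 2.47, SE 0.0892, adjusted p = 9.63e-08). No library of one siRNA overlapped with the other.

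Trim5 (308906), whose primate counterpart blocks retroviral capsids, measured 20.8, 25.6 and 23.7 CPM in siNeg and 99.2, 93.3 and 94 CPM in siSlc25a26. The rise was 4.09-fold (log2 2.03, SE 0.0769, adjusted p = 9.04e-08). Under PE the levels of 26.9, 29.4 and 34.3 CPM in siNeg.PE stood against 67.7, 67 and 78.7 CPM, a 2.38-fold rise (log2 1.25, SE 0.101, adjusted p = 2.61e-05). The libraries of the siRNAs did not overlap, and the gap was narrower under PE. Trim6 (293294), which makes free ubiquitin chains that activate the kinase IKKε, was low throughout. It measured 0.331, 0.428 and 0.296 CPM in siNeg and 1.46, 1.67 and 1.6 CPM in siSlc25a26, with summed counts of 28 and 140 and a ratio of 4.49 (exact 95% interval 2.98 to 7.01). Under PE the levels were 0.241, 0.309 and 0.443 CPM against 1.04, 1.21 and 1.11 CPM, and the ratio was 3.4 (2.16 to 5.53). Trim6 entered these tests only through the libraries where it was higher, so its ratios are given as a description.

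Trim21 (308901), the cytosolic antibody receptor that sends antibody-coated virus to the proteasome, stood at 1.32 FPKM in siNeg and 22 FPKM in siSlc25a26. It measured 4.04, 5.96 and 5.78 CPM in siNeg and 88.1, 83.6 and 82.2 CPM in siSlc25a26, a 16.1-fold rise (log2 4.01, SE 0.119, adjusted p = 1.69e-08). Under PE it measured 7.34, 6.8 and 7.44 CPM in siNeg.PE and 84.4, 87.9 and 96.2 CPM in siSlc25a26.PE, a 12.5-fold rise (log2 3.65, SE 0.0867, adjusted p = 6.52e-09). The 6 libraries with the targeting siRNA lay within a narrow range whether or not PE was given. The promoter of Trim21 holds the overlapping matches printed above.

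Trim25 (494338), the ligase that ubiquitinates the RNA sensor RIG-I, was already present in control cells. It measured 65.5, 61.4 and 63.8 CPM in siNeg and 268, 259 and 268 CPM in siSlc25a26, a 4.17-fold rise (log2 2.06, SE 0.049, adjusted p = 4.00e-09). Under PE the levels were 44.1, 46.1 and 49.2 CPM against 199, 192 and 181 CPM, a 4.14-fold rise (log2 2.05, SE 0.0648, adjusted p = 3.75e-08). Per gene length, Trim25 was the most abundant antiviral member in siSlc25a26, at 50.7 FPKM, with Trim5 next at 40.5 FPKM.

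Trim14 (313236), an adaptor at the mitochondrial antiviral protein MAVS, was listed at 3, 5 and 3 counts in siNeg and 96, 116 and 108 counts in siSlc25a26. Under PE it was listed at 2, 0 and 7 counts in siNeg.PE and 46, 51 and 45 counts in siSlc25a26.PE. The control libraries were at or near the floor. The ratio of summed counts after scaling was 26.1 (exact 95% interval 14.4 to 52.9) without PE and 15.4 (7.88 to 34.4) under PE. Trim69 (311373), an antiviral member that binds microtubules, measured 0.147, 0.389 and 0.222 CPM in siNeg and 1.96, 1.9 and 1.25 CPM in siSlc25a26, a ratio of 6.83 (4.27 to 11.5). Under PE it measured 0.161, 0.116 and 0.241 CPM against 0.965, 1.09 and 1.19 CPM, a ratio of 6.3 (3.49 to 12.3). Neither gene overlapped between the siRNAs, and both entered the tests only through the libraries where they were higher, so these ratios too are a description.

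Trim26 (309586), which acts on the interferon pathway at TBK1 and IRF3, showed the smallest called rise. It measured 41.9, 40.7 and 43.3 CPM in siNeg and 82.7, 80.4 and 79.2 CPM in siSlc25a26, 1.93-fold (log2 0.95, SE 0.0514, adjusted p = 1.31e-06). Under PE it measured 35.2, 36.5 and 34.2 CPM against 68, 59.1 and 58.7 CPM, 1.77-fold (log2 0.82, SE 0.0768, adjusted p = 6.31e-05). The remaining tested antiviral genes were not called in either comparison. Trim23 (81002), a ligase that also holds an ARF-type GTPase domain, had log2 differences of 0.50 (adjusted p = 0.0099) without PE and 0.05 (adjusted p = 0.809) under PE. Trim65 (303684), a ligase for the RNA sensor MDA5, had log2 differences of 0.14 and 0.09 (adjusted p = 0.21 and 0.47). Trim15 was listed at no more than 3.2 counts in any library.

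Of 17 genes known to work with the antiviral TRIM proteins, 10 were called higher and 0 lower without PE (median log2 difference 0.94), and 9 higher and 0 lower under PE (median 0.97). Over all tested genes, 8.92% were called higher and 7.2% lower without PE, and 7.71% and 8.1% under PE. Ddx58, which encodes the Trim25 substrate RIG-I, measured 31.6 ± 1.04 CPM in siNeg and 517 ± 5.15 CPM in siSlc25a26. Ifih1, which encodes the Trim65 substrate MDA5, measured 5.75 ± 1.22 and 107 ± 2.74 CPM, although Trim65 itself was not called. Irf7, a transcription factor of the interferon response, measured 35.3 ± 4.98 and 2450 ± 152 CPM. By contrast Mavs, the anchor of Trim14, had a log2 difference of -0.17, and Rnf135, a ligase related to Trim25 that also acts on RIG-I, one of -0.06, neither of them called. Of 5 TRIM relatives that carry other names, Pml, the organizer of nuclear bodies, was called higher in both comparisons, at 79.6 ± 3.88 against 421 ± 18.5 CPM without PE and 70.9 ± 5.46 against 288 ± 19.9 CPM under PE. Macrophage markers were at 114 to 138 CPM in siNeg and 60.3 to 69.6 CPM in siSlc25a26, and at 63.1 to 71.4 CPM in siNeg.PE and 42.2 to 50 CPM in siSlc25a26.PE. Of the tested macrophage markers, 6 of 9 were called lower and 0 higher without PE (median log2 difference -0.88), and 2 of 8 lower and 0 higher under PE (median -0.07, with 4 of 8 above 0). Cd163 was at 0 in all libraries except 1 of siNeg. The part of these cells in the TRIM values was not tested.

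**Figure D2:**
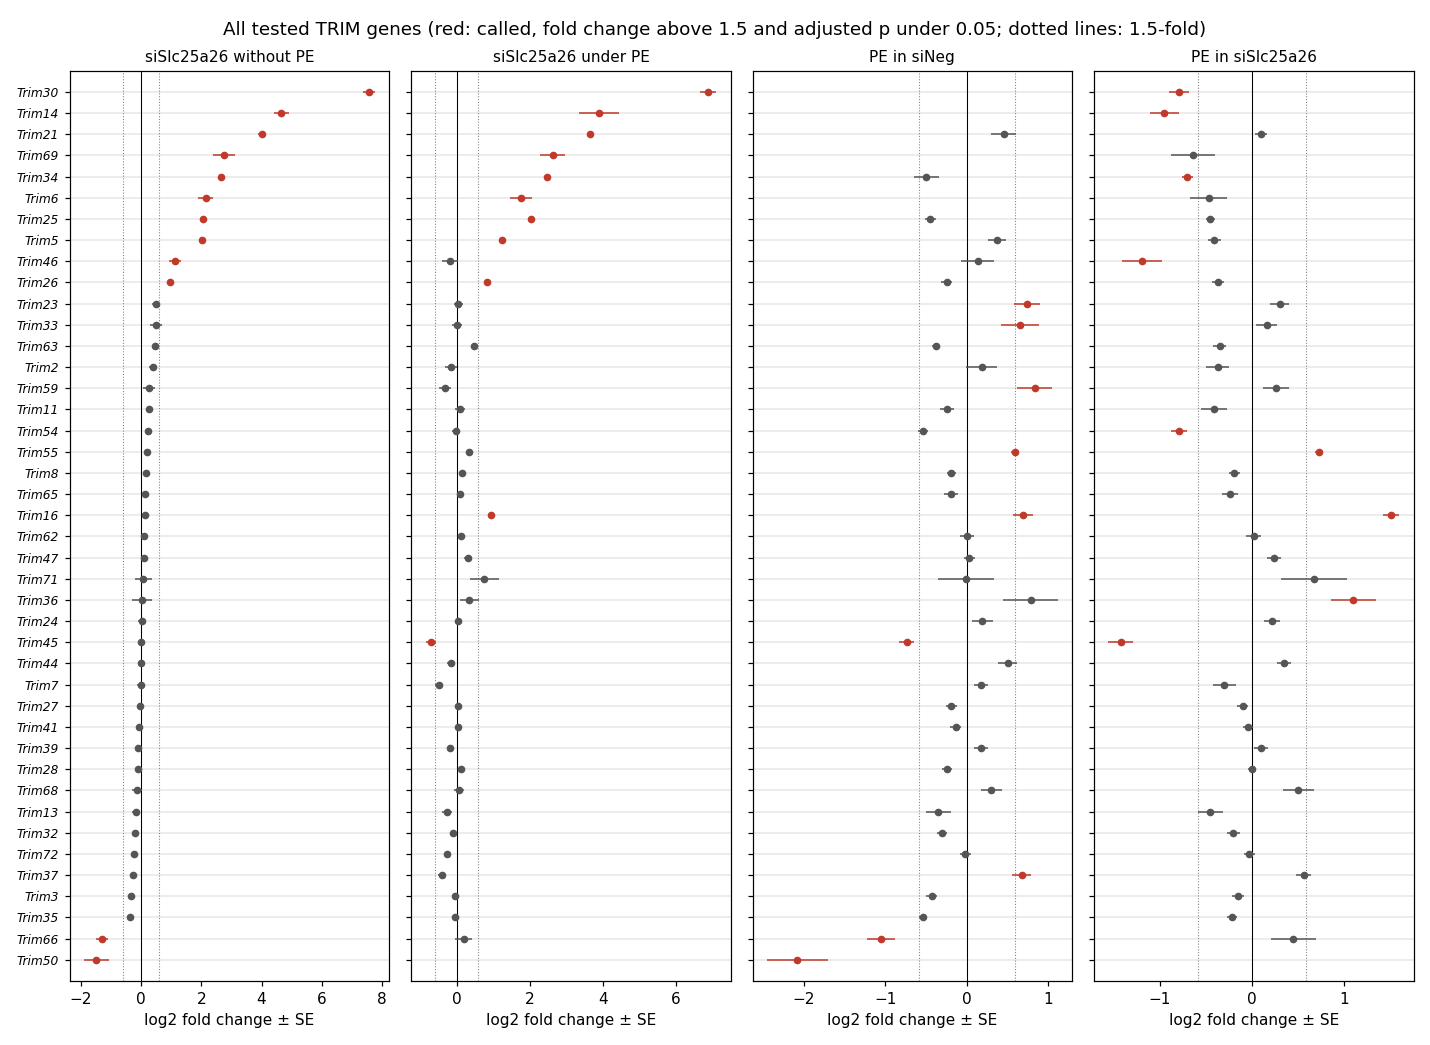
Log2 fold change with its standard error (horizontal axes) of every TRIM gene tested, 1 row per gene, for the siSlc25a26 siRNA without and under PE and for PE in siNeg and siSlc25a26 cells. Red points were called, dotted lines mark 1.5-fold, a missing point was not tested, and the horizontal scales differ. The antiviral genes at the top reach 7.57 and 6.89 in the siRNA panels, while the called PE effects lie between -2.08 and 1.51.

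The muscle TRIM genes did not pass 1.5-fold between the siRNAs, with 0 of 5 called in either direction without PE and 0 of 5 under PE. Over all tested genes, 8.92% were called higher and 7.2% lower without PE, and 7.71% and 8.1% under PE. With shares of this size, 0 of 5 does not set these genes apart. All 5 had an adjusted p under 0.05 without PE, as had 45% of all tested genes, with log2 differences from -0.24 to 0.47. Trim63 (140939), which encodes MuRF1, measured 129, 131 and 131 CPM in siNeg and 171, 188 and 181 CPM in siSlc25a26, a difference of 1.38-fold (log2 0.47, SE 0.0503, adjusted p = 1.22e-04). Under PE it measured 106, 95.5 and 98.6 CPM against 152, 137 and 128 CPM, 1.4-fold (log2 0.49, SE 0.0761, adjusted p = 0.00115). The libraries of the siRNAs did not overlap in either state, although the difference stayed under the fold threshold. Trim72 (365377), which encodes the membrane repair protein MG53, had log2 differences of -0.24 (adjusted p = 0.00699) without PE and -0.26 (adjusted p = 0.0267) under PE, and Trim32 (313264), an NHL ligase mutated in limb-girdle muscular dystrophy, of -0.20 (adjusted p = 0.0237) and -0.10 (adjusted p = 0.334).

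With PE, the MuRF2 gene was called higher in both kinds of cell. The MuRF3 gene was lower in both and passed the fold threshold only in siSlc25a26 cells. In siNeg cells, 6 of 38 members tested were called higher with PE (15.8%) and 3 lower (7.89%), where 12.4% of all 13719 genes were called higher and 8.24% lower. In siSlc25a26 cells, 3 of 41 were called higher (7.32%) and 6 lower (14.6%), where the shares of all 13776 genes were 10.1% and 10.4%. Limma on log2(FPKM + 1) called 0 higher and 3 lower in siNeg, and 1 higher and 5 lower in siSlc25a26. The PE comparisons share their libraries with the siRNA comparisons. Trim50, among the genes called lower in siNeg, was again tested only through a comparison that includes siNeg, where it was highest. Trim55 (365751), which encodes MuRF2, measured 250, 271 and 270 CPM in siNeg and 399, 401 and 385 CPM in siNeg.PE (log2 0.59, SE 0.0521, adjusted p = 9.56e-05), just above the 1.5-fold threshold. In cells with the targeting siRNA it measured 295, 306 and 303 CPM without PE and 504, 491 and 488 CPM with it, and rose by log2 0.73 (SE 0.0442, adjusted p = 2.26e-06). PE libraries lay above their controls throughout, and groups did not overlap in 58.7% of all genes in siNeg and 61% in siSlc25a26. The call in siNeg rests on single libraries, since the log2 difference was 0.56 without siNeg replicate 1 and 0.58 without siNeg.PE replicate 2, under the threshold in both cases. On both FPKM scales Trim55 was called in neither kind of cell, at log2 0.56 in siNeg and 0.58 in siSlc25a26 with a pseudocount of 0.1, and in siNeg it was at 0.58 and not called without the filter on low counts.

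Trim54 (362708), which encodes MuRF3, measured 266, 243 and 250 CPM in siNeg and 185, 167 and 168 CPM in siNeg.PE (log2 difference -0.54, SE 0.0603, adjusted p = 2.68e-04), inside the fold threshold. In siSlc25a26 cells it measured 299, 296 and 292 CPM and with PE 195, 165 and 148 CPM, and was called lower (log2 -0.79, SE 0.0862, adjusted p = 8.52e-05). Again no PE library overlapped with its controls. The PE effects on Trim54 differed by -0.26 (adjusted p = 0.172), which was not called. Per gene length the order of the pair turned round with PE. The ratio of Trim55 to Trim54 FPKM was 0.555, 0.665 and 0.643 in the siNeg libraries and 0.583, 0.606 and 0.61 in siSlc25a26. With PE it was 1.31, 1.45 and 1.39 in siNeg.PE and 1.57, 1.8 and 1.99 in siSlc25a26.PE. Trim54 was the most abundant TRIM gene in both groups without PE and Trim55 in both with PE.

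**Figure D3:**
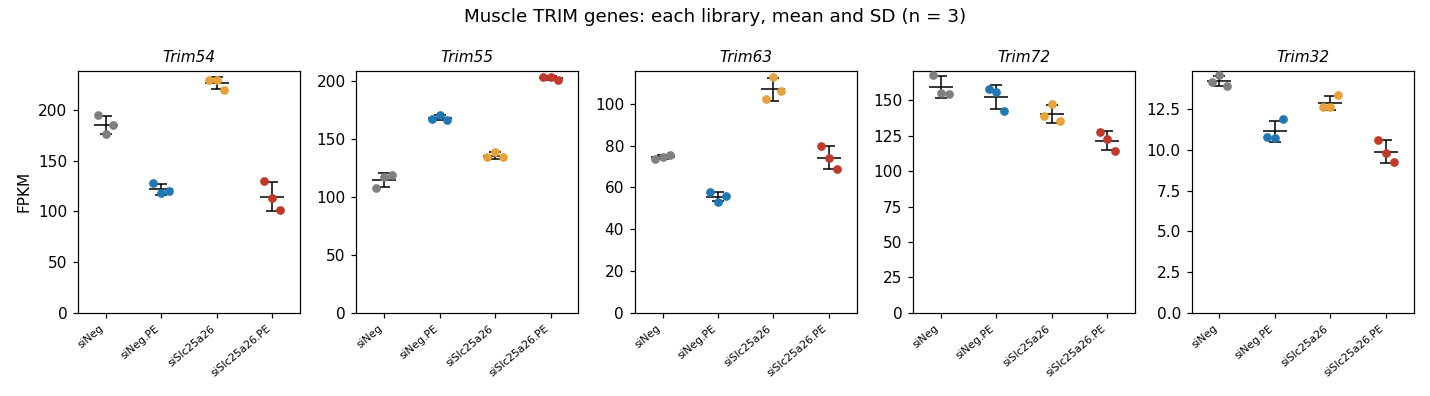
Levels of the 5 muscle TRIM genes in FPKM (vertical axes, from 0) in the 4 groups (horizontal axes). Points are libraries and bars the mean and SD of 3 libraries. Trim55 was at 115 FPKM in siNeg and 168 FPKM in siNeg.PE, and Trim54 at 185 and 122 FPKM, so the PE points sit above the controls in the one panel and below in the other.

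The other muscle genes were not called with PE. Trim63 had log2 differences of -0.38 (adjusted p = 7.37e-04) in siNeg and -0.35 (adjusted p = 0.0024) in siSlc25a26, Trim32 of -0.31 (adjusted p = 0.00475) and -0.20 (adjusted p = 0.0384), and Trim72 of -0.02 and -0.03. Of 12 tested genes that work with the muscle TRIM proteins, PE called 2 higher and 1 lower in siNeg and 3 higher and 2 lower in siSlc25a26. Over all tested genes, 12.4% were called higher and 8.24% lower in siNeg, and 10.1% and 10.4% in siSlc25a26. Counts this small do not set the 12 genes apart from those shares. Ttn, which encodes the giant sarcomere protein titin that MuRF1 and MuRF2 bind, was called higher in both (log2 0.97, adjusted p = 0.00685, and log2 0.91, adjusted p = 0.00529), and Foxo1, a transcription factor that drives Trim63 in atrophy, was called lower in both (log2 -1.17 and -1.12). Fbxo32, the atrogin-1 ligase commonly measured beside Trim63, was at 124 ± 24.5 CPM in siNeg and 84.6 ± 19 CPM in siNeg.PE, which was not called (adjusted p = 0.0365, fold under 1.5). It fell from 153 ± 6.12 to 50.4 ± 3.43 CPM with PE in siSlc25a26 cells (log2 -1.58, adjusted p = 2.72e-07). Between the siRNAs, 0 of these 12 genes were called higher and 1 lower without PE, and 0 higher and 2 lower under PE. The shares over all tested genes were 8.92% higher and 7.2% lower without PE, and 7.71% and 8.1% under PE. The summed cardiomyocyte markers were at 27700 to 29500 CPM in siNeg and 41200 to 47700 CPM in siNeg.PE, and at 23900 to 26900 CPM in siSlc25a26 and 53400 to 57300 CPM in siSlc25a26.PE. Actc1 alone measured 6560 ± 630 CPM in siNeg and 19900 ± 3070 CPM in siNeg.PE. It measured 5440 ± 220 CPM in siSlc25a26 and 31300 ± 851 CPM in siSlc25a26.PE. In each kind of cell PE called 3 of the 10 markers higher and 0 lower, with 8 log2 differences above 0 (medians 0.24 and 0.35). The part of these markers in the muscle TRIM values was not tested.

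Of 7 antiviral genes tested with PE in siNeg cells, 1 was called, Trim23, at 9.22, 11.4 and 13 CPM in siNeg and 15.6, 20 and 20.6 CPM in siNeg.PE (log2 0.74, SE 0.157, adjusted p = 0.00538). Over all tested genes, 12.4% were called higher and 8.24% lower there. In siSlc25a26 cells, where most of these genes stood higher, 3 of 11 were called lower with PE and 0 higher, with a median of -0.45 over the 11. The shares over all tested genes were 10.4% lower and 10.1% higher. Over the 7 genes tested in both kinds of cell, the median was -0.19 in siNeg and -0.37 in siSlc25a26. Trim14 fell by 0.95 on the log2 scale (SE 0.158, adjusted p = 9.69e-04), Trim30 by 0.79 (SE 0.104, adjusted p = 2.53e-04) and Trim34 by 0.70 (SE 0.0614, adjusted p = 2.21e-05). No library overlapped in any of them, a separation that 61% of all tested genes showed. In siNeg, Trim34 also had a log2 difference of -0.50 with PE (adjusted p = 0.0261), which was not called. The difference between the PE effects was not called for Trim14, Trim30 or Trim34 (adjusted p = 0.572, 0.437 and 0.38). Trim25 had log2 differences of -0.45 in siNeg (adjusted p = 0.00117) and -0.45 in siSlc25a26 (adjusted p = 8.51e-05), and Trim21 of 0.45 (adjusted p = 0.0412) and 0.10, none of them called. Among the 17 partners of the antiviral group, PE called 0 higher and 4 lower in siSlc25a26 cells, Irf7 and Mavs among them, and 1 higher and 3 lower in siNeg cells.

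Outside these groups, Trim16, Trim33, Trim37 and Trim59 rose with PE in siNeg cells and Trim45, Trim50 and Trim66 fell. Trim37 (360592), a ligase of centrosomes and peroxisomes, measured 17.1, 18.9 and 19 CPM in siNeg and 24.4, 30 and 32.9 CPM in siNeg.PE (log2 0.67, SE 0.12, adjusted p = 0.00254). Trim59 (365813) measured 3.71, 5.84 and 6.48 CPM and 7.67, 10.9 and 9.86 CPM (log2 0.83, SE 0.218, adjusted p = 0.014). Trim33 (365894), the TIF1γ regulator of SMAD signalling, measured 9.66, 14.3 and 19.5 CPM and 19, 23.2 and 25.9 CPM, with overlap between the groups (log2 0.65, SE 0.233, adjusted p = 0.0472). Each of these calls depends on single libraries. Trim37 was at log2 0.57 without siNeg.PE replicate 3, and Trim59 at log2 0.72 (adjusted p = 0.0542) without siNeg.PE replicate 2. Trim33 was at 0.43, 0.63, 0.64 and 0.54 (adjusted p = 0.0859, 0.125, 0.108 and 0.122) without siNeg replicate 1, siNeg replicate 2, siNeg.PE replicate 2 and siNeg.PE replicate 3. The other TIF1 genes, Trim24 and Trim28, were called in no comparison and lay at 11.7 to 17.5 CPM and 281 to 365 CPM over the 12 libraries. Of 5 genes that work with the TIF1 proteins, Atrx, a chromatin remodeller, was called higher with PE in siNeg (log2 1.30) and with the targeting siRNA without PE (log2 0.61), and Cbx3, which encodes a heterochromatin protein, was called lower with that siRNA under PE (log2 -0.69).

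Trim50 (288596), a ligase best known from the gastric parietal cell, fell with PE in siNeg from 1.58, 2.34 and 1 CPM to 0.401, 0.425 and 0.322 CPM (log2 -2.08, SE 0.371, adjusted p = 0.00254). In siSlc25a26 it measured 0.812, 0.623 and 0.313 CPM, lower than siNeg by a log2 difference of -1.48 (SE 0.401, adjusted p = 0.0158), and the gap was -1.15 (adjusted p = 0.0631) without siNeg replicate 2. In siSlc25a26.PE it was at 0.27, 0 and 0.0384 CPM and too low to test. Trim50 was thus tested only in comparisons that include siNeg, where it was highest, so these differences are given as a description. Trim36 (291597), a COS-box protein of microtubules, was called with PE only in siSlc25a26 cells (log2 1.10, SE 0.244, adjusted p = 0.00486). In siNeg its log2 difference was 0.78 (adjusted p = 0.0822). Among the 6 tested genes placed in the NHL, COS-box and neuronal group, the siRNA comparisons called 1 higher without PE (Trim46) and 1 lower under PE (Trim45). Over all tested genes, 8.92% were called higher without PE and 8.1% lower under PE. The test of the difference between the PE effects did not call Trim36 (log2 0.29, SE 0.432, adjusted p = 0.708).

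The last comparison asks whether the PE effect differed in the libraries with the targeting siRNA, tested as an interaction over all 12 libraries. Of 42 members, 2 had a higher PE effect (4.76%) and 3 a lower one (7.14%), where 2.16% of all 14097 genes had a higher and 3.34% a lower one. Trim16 (303214), which helps clear damaged lysosomes by autophagy, measured 12.8, 12 and 9.97 CPM in siNeg, 19.3, 20.2 and 16.4 CPM in siNeg.PE, 13.6, 12.9 and 11.6 CPM in siSlc25a26 and 33.7, 37.9 and 35.7 CPM in siSlc25a26.PE. The siRNAs overlapped without PE and separated under it. Trim16 rose with PE by log2 0.69 (adjusted p = 0.00247) in siNeg and 1.51 (adjusted p = 1.45e-06) in siSlc25a26, a difference of 0.79 (SE 0.152, adjusted p = 0.00577).

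Trim66 (361623), the TIF1δ member, measured 3.56, 3.19 and 2.82 CPM in siNeg, and 1.61, 1.39 and 1.61 CPM in siNeg.PE. It measured 1.46, 1.38 and 1.04 CPM in siSlc25a26 and 1.27, 1.88 and 2.07 CPM in siSlc25a26.PE. The siNeg libraries alone stood high. Trim66 fell with PE in siNeg (log2 -1.05, adjusted p = 0.00173) and was lower with the targeting siRNA without PE (log2 -1.30, adjusted p = 7.24e-04), and the PE effects differed by 1.48 (SE 0.295, adjusted p = 0.00719). Trim46 (310641), which orders microtubules at the start of the axon, was high only in siSlc25a26, at 3.89, 3.21 and 2.57 CPM, against 1.29, 1.52 and 1.59 CPM in siNeg, 1.36, 1.7 and 1.73 CPM in siNeg.PE and 1.24, 1.68 and 1.27 CPM in siSlc25a26.PE. It rose with the targeting siRNA without PE (log2 1.14, adjusted p = 0.002) and fell with PE in those cells (log2 -1.19, adjusted p = 0.00179), and the PE effects differed by -1.34 (SE 0.297, adjusted p = 0.0129).

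Trim45 (295323), a RING protein with a filamin-type domain, fell with PE in both kinds of cell. It measured 10.5, 10 and 10.4 CPM in siNeg, 6.14, 6.3 and 6.08 CPM in siNeg.PE, 9.78, 10.2 and 10.7 CPM in siSlc25a26 and 4.48, 3.67 and 3.19 CPM in siSlc25a26.PE. The control groups overlapped and the siSlc25a26.PE libraries were the lowest. The PE effects of -0.74 (adjusted p = 5.32e-04) and -1.42 (adjusted p = 3.42e-05) differed by -0.70 (SE 0.158, adjusted p = 0.0144). Under PE, Trim45 was lower with the targeting siRNA by a log2 difference of -0.70 (adjusted p = 0.00511), which was -0.57 (adjusted p = 0.0173) and no longer past 1.5-fold without siSlc25a26.PE replicate 3. Trim5 was the only antiviral member called here, with PE effects of 0.37 in siNeg and -0.41 in siSlc25a26 and a difference of -0.80 (SE 0.135, adjusted p = 0.00284). The muscle genes had a median difference of 0.01 with 0 of 5 called, where 2.16% of all genes had a higher and 3.34% a lower PE effect.

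**Figure D4:**
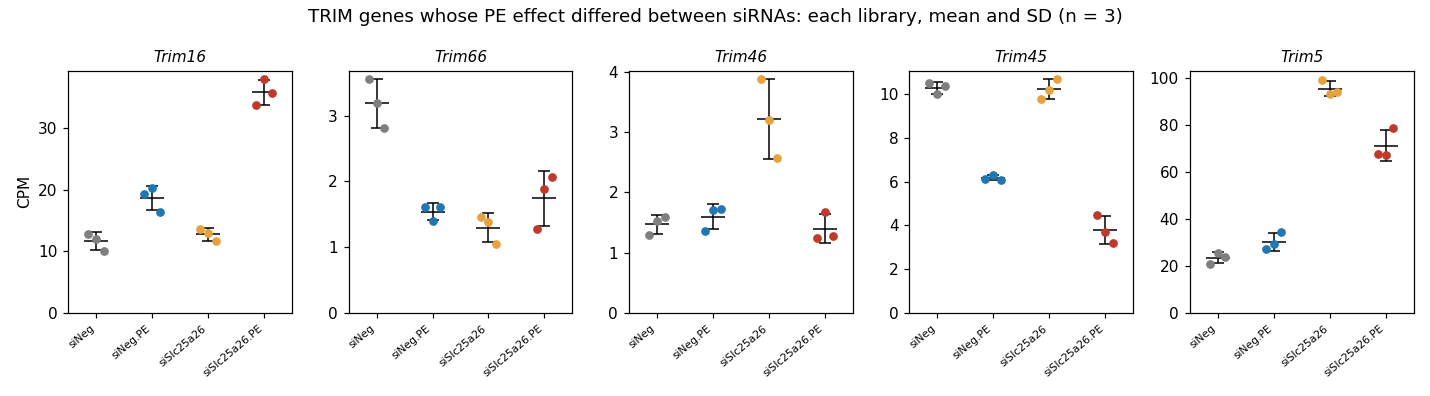
Levels in CPM (vertical axes, from 0) of the 5 TRIM genes whose PE effect differed between the siRNAs, in the 4 groups (horizontal axes). Points are libraries and bars the mean and SD of 3 libraries. Trim16 reaches 33.7 to 37.9 CPM in siSlc25a26.PE alone, Trim66 is high in siNeg alone and Trim46 in siSlc25a26 alone.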

How the data were processed

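Total RNA of NRVMs was sequenced by BGI, 3 replicates in each of 4 groups that the labels give. The authors deposited a table of estimated counts per gene, of which 20.8% to 21.9% of the values per library are not whole, and a table of FPKM values. The submitters' processing notes name HISAT, Bowtie2 and the build Rnor_6.0, while the counting program, annotation and strandedness are not given in the sources used here. Counts were rounded and tested with edgeR 4.0.16 in R 4.3.3 (TMM, filterByExpr, quasi-likelihood test, Benjamini-Hochberg adjustment over all tested genes). Only the groups compared entered a fit, except the interaction, which used all 12 libraries. The planned design assumed counts. Standard errors came from the F statistic. Intervals of ratios are exact conditional 95% intervals of summed counts and cover counting error only.

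The members, role lists and partner lists were chosen with earlier results of these data known. Values were given for each antiviral and muscle member, for each member called in any comparison, and for the rest as counts. No replicate pair was a repeat deposit, since the chi-square per gene between replicates was at least 5.52. Alternatives were DESeq2 1.42.0, limma-voom and limma on log2(FPKM + 1) or log2(FPKM + 0.1) with limma 3.58.1, DESeq2 size factors, a replicate block, no filter, a filter of 10 counts per library throughout, a joint fit of 12 libraries, no fold threshold and leaving out each library. The scripts were tested on simulated data. All 53 gene identifiers matched RefSeq (GRCr8), which gave promoters and names only. No protein sequences were used here. The labels give no sequencing batch.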

Additional observations from a re-analysis of the deposited data

Results flagged for a closer look

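The PE effect differed between the siRNAs in 5 TRIM genes, by the interaction term of edgeR's quasi-likelihood test over 12 libraries. The PE effect in siSlc25a26 less that in siNeg, on the log2 scale, was 1.48 for Trim66, 0.79 for Trim16, -0.80 for Trim5, -1.34 for Trim46 and -0.70 for Trim45. Each was called with every library left out in turn, but Trim45, Trim46 and Trim66 were not called by limma on log2(FPKM + 1). Slc25a26 itself had a difference of 1.06 (SE 0.128, adjusted p = 4.66e-04), and its level did not separate siSlc25a26.PE from siNeg.PE.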

How the results depend on the processing

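Of 46 results for single TRIM genes, 24 kept their call under all alternatives that could be run, and none changed direction. With 9 TRIM genes called for PE in siNeg, 12 for siSlc25a26 without PE, 11 under PE, 9 for PE in siSlc25a26 and 5 for the difference, dropping the fold threshold gave 24, 24, 17, 25 and 6. Limma on log2(FPKM + 1), a scale that understates low genes, gave 3 for PE in siNeg, 7 for siSlc25a26 under PE and 3 for the difference. A minimum of 10 counts in every library, which removes genes with few counts in controls, gave 7 in each siRNA comparison. Leaving out each library gave 6 to 10, 11 to 14, 10 to 13, 9 to 12 and 5 to 7 calls in the same order.

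On the FPKM scales the PE splits moved. Higher against lower calls were 0 and 3 for log2(FPKM + 1) and 3 and 4 for log2(FPKM + 0.1) in siNeg, against 6 and 3 by counts, and 1 and 5 or 2 and 10 in siSlc25a26, against 3 and 6. For the siRNA without PE they were 8 and 0 for log2(FPKM + 1), against 10 and 2, and for the difference 2 and 5 for log2(FPKM + 0.1), against 2 and 3. The median of all genes for PE in siSlc25a26 was -0.13 and -0.17 there. The same-numbered libraries did not deviate together throughout (correlations -0.105 to 0.281). The correlations were 0.219, 0.031 and 0.281 for PE in siNeg and 0.226, -0.001 and 0.199 for siSlc25a26 under PE. Whether these libraries share more than a number was not tested. In the same order, with the number as a block 9, 12, 11, 9 and 6 genes were called, Trim2 being added to the difference. Libraries correlated best with their own number in 5, 3, 4 and 0 of 6 cases in the 4 pairwise comparisons. Depth limits Trim6, Trim14, Trim30 and Trim69, which had at most 11 counts in any control library.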
